A study of Canis lupus familiaris with 20 samples.

Results

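Gene expression was compared between canine mammary tumour cell lines of different histology, each grown alone, without macrophages. CMT-W1 and CMT-W2, derived from adenocarcinomas, were set against the spindle-cell line CMT-U309, the anaplastic line P114 and CMT-U27, which comes from a simple carcinoma. The members are the mono-culture channel of the 10 cancer cell arrays, of 20 arrays in the whole series. Of these, 4 belong to the adenocarcinoma lines and 6 to the other lines. In the study each line was also co-cultured with macrophages for 72 h, and each Agilent canine array was hybridised with both RNAs of a line, the mono-culture in 1 dye (Cy5 or Cy3) against the co-culture in the other. Both arrays of a line hold the same RNAs with the dyes exchanged, so they were averaged and counted as 1 replicate. The comparison is therefore 2 lines against 3 lines.

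The labels and methods give no treatment or genetic change for the mono-cultures, all lines were kept in the same serum-supplemented medium, and the mono-cultures were scraped from the flask and not sorted. The class of a line comes from the methods of the study, since the sample labels give the name of the line alone. Each line is a single culture derived from a tumour, so no class holds more than 3 independent tumours. Both adenocarcinoma lines came from 1 laboratory and CMT-U27 and P114 from 2 others, so the source of the lines and their class cannot be told apart. The p-values measure the spread between lines.

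Mammary adenocarcinomas grow from the glandular epithelium, whose cells are joined by tight junctions and by desmosomes, the adhesive plaques that anchor keratin filaments. Spindle-cell and anaplastic tumours have lost much of that gland-like form. Cultured lines of either kind also secrete growth factors, angiogenic factors and cytokines, and many carry an active interferon response.

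Before the classes were compared, the 5 lines were compared with each other, as a description with no test. Levels are log2 of the normalised signal, and a gene was tested where its mono-culture signal exceeded background clearly on the full dye-swap pair of 2 or more lines. CMT-W1 stood apart from every other line. Between CMT-W1 and CMT-U27, CMT-U309 and P114, 9976, 10532 and 10135 of the 23450 tested genes were at least 4-fold apart, with Pearson correlations across genes of 0.62, 0.58 and 0.55. CMT-W2 was no closer to CMT-W1 than to the lines of the other class. It differed at least 4-fold from CMT-W1 in 4621 genes (r = 0.80), from CMT-U27 in 4266 (r = 0.80), from CMT-U309 in 3648 (r = 0.83) and from P114 in 3783 (r = 0.82).

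Among the other lines, CMT-U309 and P114 were the closest pair. Only 288 genes, 1.23% of those tested, were at least 4-fold apart between these lines (r = 0.97), while CMT-U27 differed from them in 2590 and 2735 genes (r = 0.87 and 0.86). On the arrays with the mono-culture in Cy5, CMT-U309 and P114 correlated at 0.98 with 183 genes at least 4-fold apart, and on those with it in Cy3 at 0.94 with 2127 genes apart, over the genes measured on both. The 2 arrays of a single line, which hold the same RNA in different dyes, correlated at 0.97 to 0.98 and were at least 4-fold apart in 94 to 1211 genes. CMT-U309 and P114 were thus within the range of the dye-swap pairs on the Cy5 arrays, and farther apart than any of these pairs on the Cy3 arrays. In the mean of both dyes the count lay within that range, but the correlation (0.965) was below the lowest of the dye-swap pairs (0.970). That comparison sets means of 2 arrays against single arrays. Class results are given below also with these lines averaged and counted as 1. Whether they are independent was not tested.

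**Figure D1:**
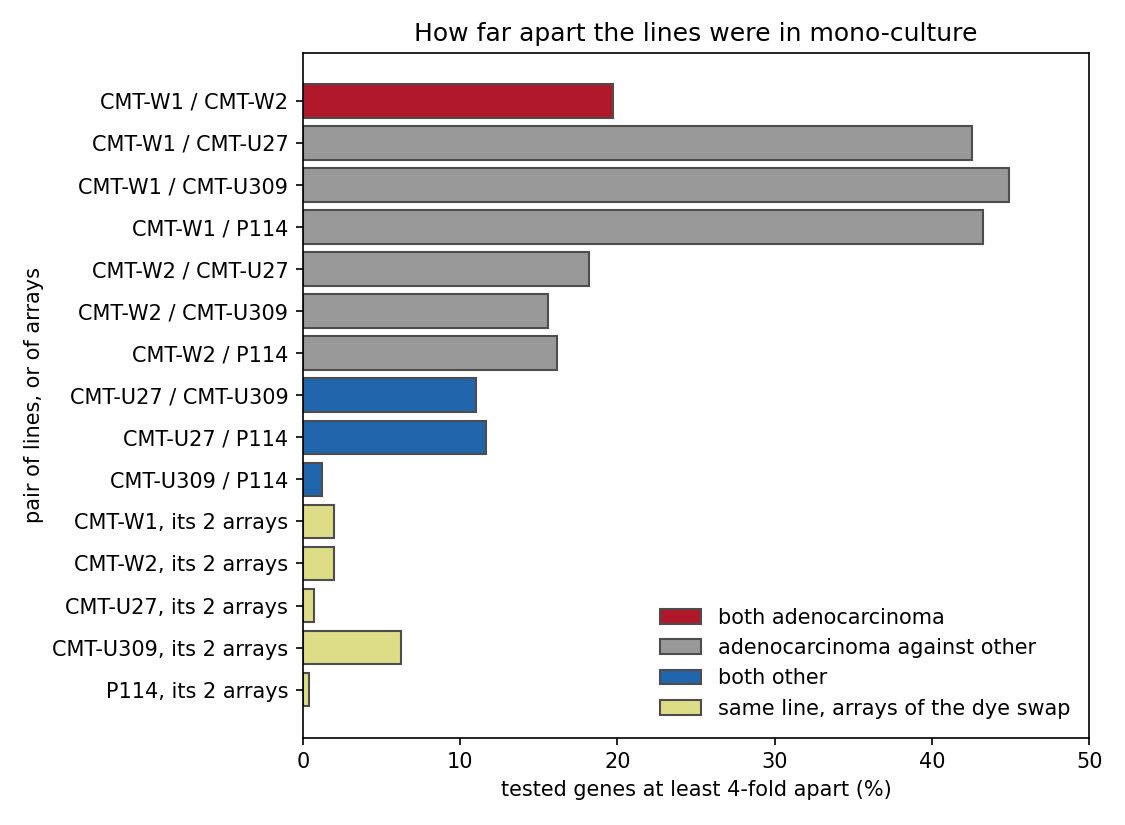
Bars give the percentage of the 23450 tested genes that were at least 4-fold apart in mono-culture, for the 10 pairs of lines and, for scale, between the 2 dye-swap arrays of each line (over genes measured on both). CMT-W1 differed from the other class in 42.5% to 44.9% of genes and CMT-W2 in 15.6% to 18.2%, while CMT-U309 and P114 differed in 1.23%.

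Signal strength moved with the lines. In the mono-culture channel, 40.9% and 55.7% of probes were well above background on the arrays of CMT-W1, against 60.1% and 63.2% for CMT-W2, 50.2% and 66.8% for CMT-U27, 58.6% and 69.2% for P114, and 81.6% and 84.5% for CMT-U309. The CMT-U309 array with the mono-culture in Cy3 had 9870 spots with an outlier mark, which were left out, against 6 to 1438 on the others. No spot was saturated. CMT-U27 and P114 shared a slide, CMT-W2 and CMT-U309 shared another, and CMT-W1 was alone among the cancer lines on the third. The part of signal strength and of slide in the results was not tested beyond the values given beside them.

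The label of mammary carcinoma cells could be checked only in part, because few probes for its defining markers have a gene symbol here. Of the epithelial markers, CLDN3, a tight-junction claudin, was clearly detected in all 5 lines, at 13.93 in CMT-W1, 11.70 in CMT-W2, 12.59 in CMT-U27, 12.33 in CMT-U309 and 12.13 in P114. OCLN (occludin) and MUC1 (a mucin of gland surfaces) were above background on both arrays of CMT-U309 and P114, and on at most 1 array of each of CMT-W1, CMT-W2 and CMT-U27. The level of OCLN was 7.17 in CMT-W1 and 7.15 in CMT-U309, while the lowest signal above background was 6.79 to 7.85 on the arrays of CMT-W1 and 3.86 to 4.29 on those of CMT-U309. COL1A2, a collagen I chain made by mesenchymal cells, stood at 13.48 (CMT-U27) to 15.47 (P114) in CMT-W2 and the 3 other lines and at 9.90 in CMT-W1. Its 6 probes disagreed, with class differences from -2.16 to 0.84. The keratins, EPCAM, CDH1 and VIM were not analysed here.

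Markers of macrophages, the other cell type of the study, were not at 0 in every line grown alone. CD163, a scavenger receptor of macrophages, was above background on neither array of CMT-W1, CMT-W2 and P114, and on both arrays of CMT-U27 (8.89) and CMT-U309 (8.18). FCGR1A, a high-affinity Fc receptor, stood at 5.64 in CMT-W1 and 6.76 in CMT-W2 against 10.07 in CMT-U27, 9.48 in CMT-U309 and 7.24 in P114. Of 6 macrophage markers with a probe, 1 was above background on both arrays of CMT-W1 and of CMT-W2, 2 in P114, 3 in CMT-U27 and 6 in CMT-U309. These counts move with the lowest signal above background, 3.86 to 4.29 on the arrays of CMT-U309 and 5.97 to 6.16 on those of CMT-W2. CD209 thus counted in CMT-U309 at 4.66 but not in CMT-W2 at 5.20. The summed level of the 6 markers spanned 10.86 to 11.09 on the log2 scale in the adenocarcinoma lines and 10.08 to 12.14 in the other lines, so the ranges overlapped. CYBB was the brightest of the 6 in every line, at 10.95 in CMT-W1 against a sum of 11.09. FCGR1A levels did not overlap between the classes, as for 51.9% of all tested genes. In bulk RNA, a few cells with much of a transcript and many cells with little cannot be told apart. Of the lymphocyte markers, CD4 and CD8A were above background in every line, while MS4A1, the B-cell antigen CD20, was above background on 1 array in all, of CMT-U309.

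More genes were called higher than lower in the adenocarcinoma lines. Of 23450 genes tested, 1054 (4.49%) were higher and 786 (3.35%) lower in CMT-W1 and CMT-W2 at an adjusted p under 0.05 (limma, Benjamini-Hochberg), together 1840 or 7.85%, and all of them with a fitted difference of at least 4-fold. At an unadjusted p under 0.05 there were 7612. The levels of the adenocarcinoma lines lay wholly above or wholly below those of the other lines for 12164 genes, or 51.9%. The median difference over all tested genes was 0.03 and the median of its absolute value 1.22 on the log2 scale.

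This count depended on which lines entered. With CMT-W1 left out no gene passed (limma, 23155 tested, 3818 at an unadjusted p under 0.05), and with CMT-W2 left out 7552 passed, of which 2962 were higher and 4590 lower, so the majority turned. Each of these fits sets 1 line against 3 and takes the spread from the other class alone, assuming that the lone line varies alike. Without CMT-U309 there were 241, without P114 456 and without CMT-U27 1438. With CMT-U309 and P114 counted as 1 line 269 genes passed, of which 268 were among the 1840. With the slide as a fixed block, which leaves the difference between CMT-W2 and CMT-U309 alone, no gene passed and 2021 had an unadjusted p under 0.05. On the arrays with the mono-culture in Cy3 alone 410 genes passed, and in Cy5 alone 2177. Under the methods' t-test 1403 genes passed the unadjusted threshold of the methods, 5124 had an unadjusted p under 0.05 and none passed after Benjamini-Hochberg adjustment.

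Within the class, CMT-W1 was more often the distant line, in 79% of all tested genes. Of the 1054 genes called higher, 1007 (95.5%) were higher in CMT-W1 than in CMT-W2, with a median excess over the mean of the other lines of 4.10 in CMT-W1 and 2.87 in CMT-W2 (log2). Of the 786 called lower, 594 (75.6%) were lower in CMT-W1. Over all tested genes CMT-W2 lay between CMT-W1 and the mean of the other lines in 63.3%. For genes called lower, the deficit had a median of 3.76 in CMT-W1 and 2.89 in CMT-W2, both below the other lines.

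**Figure D2:**
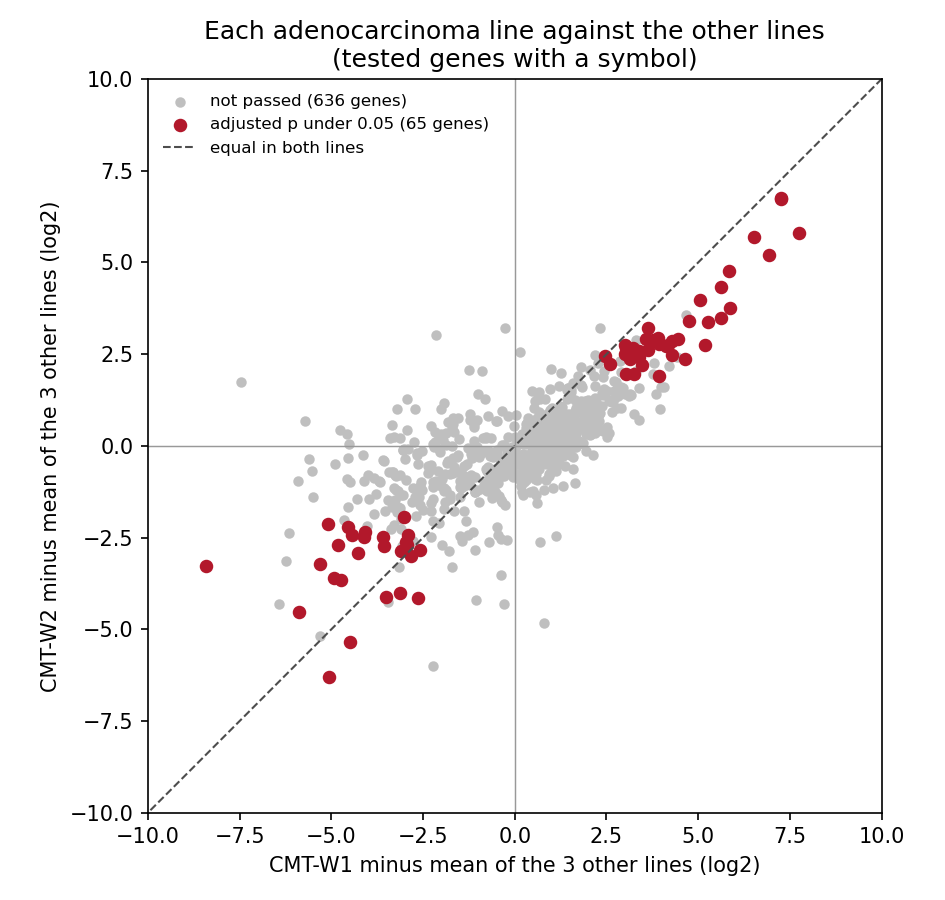
Each point is 1 of the 701 tested genes with a symbol, by its log2 level in CMT-W1 (horizontal axis) and in CMT-W2 (vertical axis), each minus the mean of CMT-U27, CMT-U309 and P114. The 65 genes at an adjusted p under 0.05 are dark, and all 39 of them that were higher in the adenocarcinoma lines lie below the dashed line of equality, which means that CMT-W1 exceeded CMT-W2.

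Of the 23450 tested genes, 701 could be named by a symbol. Of these, 39 were called higher and 26 lower, 9.27% in all against 7.85% of all tested genes. The genes described next are among the 10 with a symbol that differed most in each direction, and then the members of gene lists. None of the lists was chosen blind to these data, and their counts are read beside those of all genes.

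Several genes with the largest fitted differences were at or near background in the 3 other lines, so their exact size and order cannot be read. PPP1R2, an inhibitor subunit of protein phosphatase 1, stood at 11.65 in CMT-W1 and 11.15 in CMT-W2 against 4.17 in CMT-U27, 4.56 in CMT-U309 and 4.42 in P114. Only 1 of the 6 arrays of the other lines was above background for it. The fitted class difference was 7.02 ± 0.57 (log2, SE; adjusted p = 0.00611, limma).

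A pair of secreted growth factors followed. FGF5, a fibroblast growth factor, was measured at 11.20 in CMT-W1 and 10.67 in CMT-W2, and at 5.04 in CMT-U27, 2.24 in CMT-U309 and 4.57 in P114. No array of the other lines that entered the mean was above background (1 marked spot, of CMT-U309 in Cy3, was an outlier), so the signal was at least 47.1-fold higher (adjusted p = 0.01, limma). A second FGF5 probe differed by 5.37. BDNF, a neurotrophin that signals through the receptor TrkB, stood at 11.73 and 9.80 in CMT-W1 and CMT-W2 and at 3.74, 3.89 and 4.33 in CMT-U27, CMT-U309 and P114. None of the 6 arrays of the other lines was well above background for BDNF, so its signal was at least 43.8-fold higher in the adenocarcinoma lines (adjusted p = 0.00898, limma).

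YES1 and DLC1 act in signalling and differed in the same direction. YES1, a kinase of the Src family, stood at 11.06 in CMT-W1 and 10.24 in CMT-W2 against 4.34 to 4.84 in the other lines. As for FGF5, no array used of the other lines was above background, and the signal was at least 34.2-fold higher (adjusted p = 0.00716, limma). DLC1, which switches off small GTPases of the cytoskeleton, was expressed in more of the lines, at 12.77 and 11.71 in the adenocarcinoma lines, 8.62 in CMT-U309, 6.81 in CMT-U27 and 5.40 in P114. Its difference was 5.30 ± 0.95 (adjusted p = 0.0235, limma), while a second DLC1 probe, above background on 3 of 10 arrays, differed by -2.02. HACD1, an enzyme of very-long-chain fatty acid synthesis, stood at 12.02 in CMT-W1 and 10.31 in CMT-W2 and between 3.80 and 6.53 in the other lines.

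The remaining genes of this set are known from specialised tissues. TAS2R3 (a bitter taste receptor) stood at 9.74 in CMT-W1 and 8.47 in CMT-W2, and GNAT1 (the rod photoreceptor transducin) at 9.89 and 7.76. Neither was above background on any array of the other lines, so their signals were higher by at least 13.9-fold (TAS2R3) and 11.2-fold (GNAT1). CRYBB2, a crystallin of the lens, differed by 4.51 ± 0.61 and its second probe by 4.75.

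**Figure D3:**
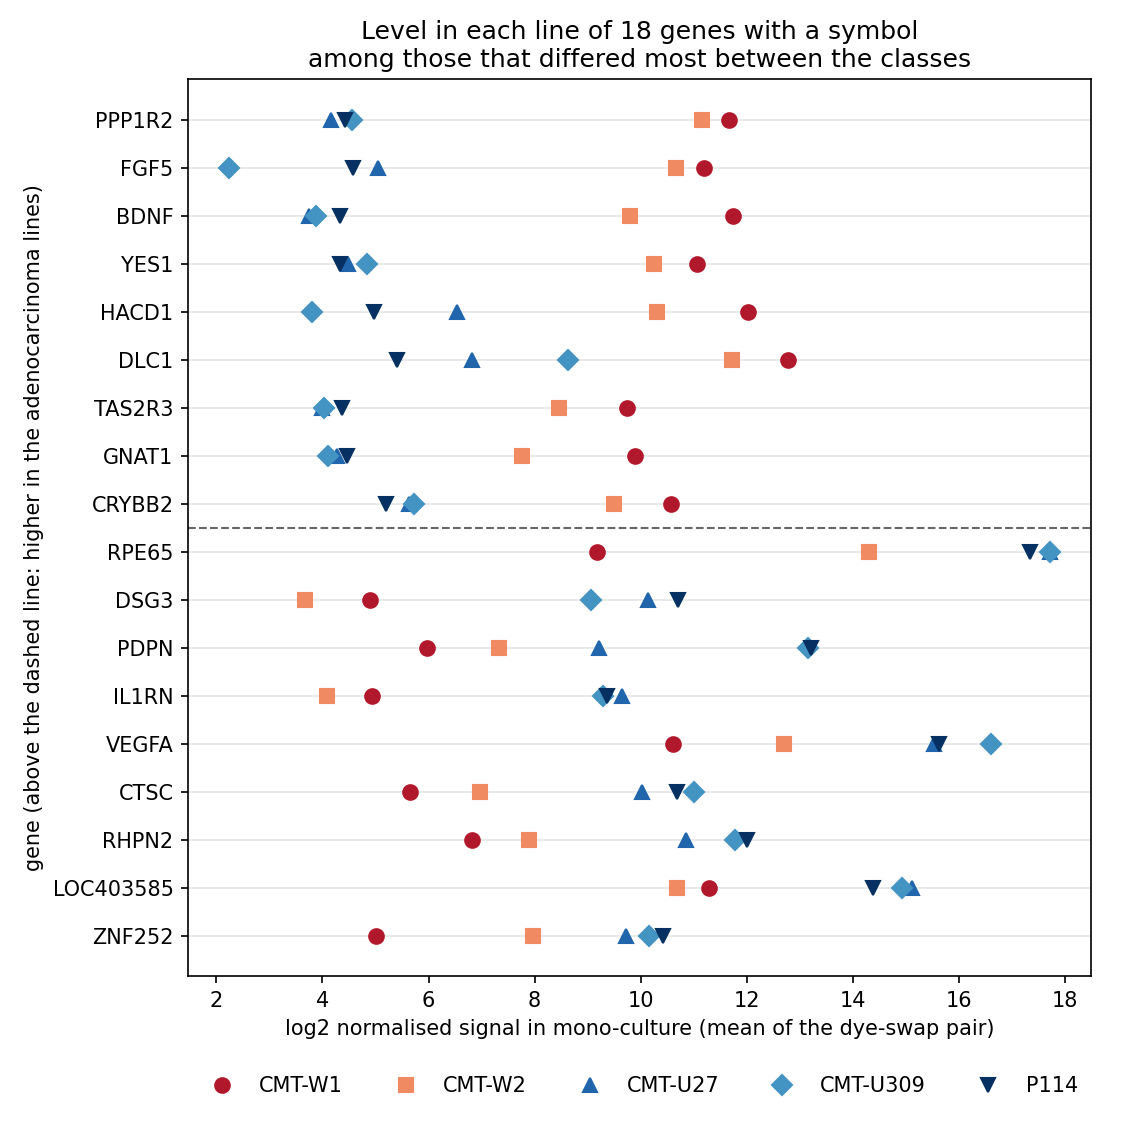
Log2 normalised signal in mono-culture of 18 genes with a symbol, the 9 above the dashed line higher and the 9 below it lower in the adenocarcinoma lines, with 1 point per line (mean of its dye-swap arrays). Genes were chosen for levels that do not overlap between the classes, and CMT-W2 lies nearer to them than CMT-W1 in all except DSG3, IL1RN and LOC403585.

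The genes lower in the adenocarcinoma lines are described next by their roles. DSG3, a desmosomal cadherin of stratified epithelium, was not well above background on any array of CMT-W1 (4.89) or CMT-W2 (3.66), and stood at 10.14 in CMT-U27, 9.07 in CMT-U309 and 10.69 in P114. Its signal was at least 9.70-fold lower in the adenocarcinoma lines (adjusted p = 0.01, limma).

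VEGFA, the main growth factor of blood vessels, was abundant in every line and lower in the adenocarcinoma lines. It stood at 10.61 in CMT-W1 and 12.71 in CMT-W2 against 15.53 in CMT-U27, 16.61 in CMT-U309 and 15.63 in P114, a 19.2-fold lower signal (difference -4.27 ± 0.78, adjusted p = 0.0245, limma). A second VEGFA probe differed by -1.64. PDPN (podoplanin), a surface glycoprotein of invading tumour edges and lymphatic endothelium, spread widely within the other class, at 9.21 in CMT-U27 and 13.15 and 13.21 in CMT-U309 and P114, against 5.98 and 7.33 in the adenocarcinoma lines.

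IL1RN, the secreted antagonist of the interleukin-1 receptor, was near even within the other class. The 3 other lines stood at 9.65, 9.29 and 9.36, and neither adenocarcinoma line was above background (4.93 and 4.09), so the signal was at least 6.70-fold lower (adjusted p = 0.00959, limma). Of the macrophage markers, P114 had FCGR1A and CYBB above background on both arrays but not CD163, and CMT-U27 had all of these. The part of such markers in the IL1RN difference was not tested. CTSC, a lysosomal protease that activates enzymes of leukocyte granules, differed by -4.26 ± 0.67 (adjusted p = 0.0178, limma), at 5.66 and 6.97 against 10.03 to 11.01. RHPN2, a scaffold protein of GTPase signalling, differed by -4.19 with its brightest probe and by -3.76 and -4.93 with 2 others. ZNF252, a zinc-finger gene, and LOC403585 completed the set, with differences of -3.62 and -3.82.

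RPE65, the isomerase of the visual cycle, had the largest negative difference among the 701 genes with a symbol, from 17.71, 17.71 and 17.34 in CMT-U27, CMT-U309 and P114 to 14.30 in CMT-W2 and 9.17 in CMT-W1 (difference -5.85 ± 1.30, adjusted p = 0.0391, limma). A second RPE65 probe was above background on 0 of 10 arrays. The value is therefore that of 1 probe, and the second, without a signal, cannot check it.

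Not all of these genes depended equally on single lines. Of the 34 genes that met the naming rule, or were added to it, and passed, 10 also passed with CMT-U309 and P114 counted as 1 line, namely PPP1R2, FGF5, BDNF, YES1, HACD1, DLC1, TAS2R3, CRYBB2, DSG3 and IL1RN. The 24 others did not pass then. The difference of CMT-W2 from CMT-U309 on their shared slide, whose sign is fixed where levels do not overlap, was within 1 standard error of the class difference (from the gene's own spread over lines) for 22 of the 34 and beyond it for 12.

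The lists of genes with related functions are described next, with the median difference of their tested members beside the 0.03 of all genes. Their counts of members that passed stand beside 7.85% of all tested genes and 9.27% of those with a symbol. Epithelial junction and keratin genes had 7 members tested of 10 with a probe, of which 2 passed, both lower and DSG3 among them (median -1.58). The junction genes did not move as one group. TJP1, a scaffold protein of tight junctions, differed by 0.49, CLDN3 by 0.47 and CTNNB1, the beta-catenin that links cadherins to actin, by 0.56, and none of these passed. The other CTNNB1 probes disagreed in direction, with differences of 0.50, -0.18 and -0.73. Differences of OCLN (-1.95) and MUC1 (-1.58) did not pass either.

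Mesenchymal and myoepithelial genes were tested for 10 of 11 members and none passed (median 0.64). OXTR, the oxytocin receptor of myoepithelial cells, was the closest, at 10.24 and 8.98 in the adenocarcinoma lines and 7.22 to 7.61 in the others (difference 2.18, adjusted p = 0.0691, limma). DCN (decorin) shows the spread within a class, with 11.98 in CMT-U309, 5.27 in P114 and 3.74 in CMT-U27. In that gene the lines CMT-U309 and P114 were far apart. BGN and MYH9 differed by 1.42 and 1.12 and did not pass.

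Of 10 collagen and matrix genes tested (median 0.65), COL4A4, a chain of basement membrane collagen, rose to 10.03 in CMT-W1 and 7.74 in CMT-W2 from 5.01 to 5.70 in the other lines (difference 3.50 ± 0.78, adjusted p = 0.0385, limma). ACAN (aggrecan) differed by 1.36 and COL1A2 by -2.16, and neither passed.

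Among 13 proteases and inhibitors tested (median -0.59), CTSC was the only one to pass. MMP9, the gelatinase of basement membrane collagen, did not pass, at 10.21 and 12.87 against 15.81, 15.23 and 13.60 in CMT-U27, CMT-U309 and P114 (difference -3.34 ± 0.97, adjusted p = 0.0717, limma). PLAU (urokinase) overlapped between the classes, with its lowest level in CMT-U27 (7.39) and its highest in P114 (14.24).

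Of 8 integrins and adhesion genes tested (median -0.92), CEACAM1, an adhesion molecule of epithelial and immune cells, passed. It was not above background on any of the 4 adenocarcinoma arrays and at least 3.22-fold lower there than in the other lines, where it stood at 7.57 to 9.67 (adjusted p = 0.0407, limma). ICAM1, a ligand of leukocyte integrins, and CAV2, a caveolin, differed by -1.92 and -2.19 without passing. CD47, the signal that restrains engulfment by macrophages, differed by -0.96 and was highest in CMT-U27 (12.87).

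Of 15 growth factors and receptors tested, 2 were called higher and 2 lower (median -1.03). Besides FGF5, BDNF and VEGFA, IGF2R, the receptor that clears insulin-like growth factor 2, was lower at 11.39 and 12.46 against 14.31 to 14.59 (difference -2.48 ± 0.60, adjusted p = 0.048, limma). Its 2 other probes differed by -2.79 and 0.72. FGFR2, a receptor of fibroblast growth factors, stood at 4.39 in CMT-W1, 8.50 in CMT-W2 and 8.91 to 10.47 in the other lines and did not pass (adjusted p = 0.0954, limma). ERBB2 and KIT differed by -0.45 and -0.34, and MET, the receptor of hepatocyte growth factor, by -1.13.

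Of 10 steroid hormone, prolactin and milk genes tested (median -0.39), PPARG, the nuclear receptor of fat cell differentiation, passed. It stood at 12.95 and 11.39 in CMT-W1 and CMT-W2 and at 7.84 to 9.03 in the other lines (difference 3.68 ± 0.71, adjusted p = 0.0279, limma). HSD11B1, which activates glucocorticoids, was above background on no adenocarcinoma array and did not pass (at least 4.63-fold, adjusted p = 0.122, limma). It was strong in CMT-U309 (10.32) and P114 (12.18) and weak in CMT-U27 (4.20), CMT-W1 (3.60) and CMT-W2 (3.72). PGR, the progesterone receptor, differed by -0.55.

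In the Wnt and Notch pathways none of 5 tested members passed (median -0.37). FZD6, a Wnt receptor, differed by -0.75 with its brightest probe and by -3.30 with a second, above background on 8 of 10 arrays. HEY1, a Notch target, was above background on no adenocarcinoma array. CCND1 (cyclin D1), a target of Wnt signalling, differed by -0.37.

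Chemokines, cytokines and their receptors formed the largest list, with 32 of 54 members tested, none called higher and 2 lower (median -0.90). IL1RN has been described. ACKR3, a scavenging receptor of the chemokine CXCL12, was not above background in CMT-W1 (6.52) or CMT-W2 (5.03) and stood at 9.93 in CMT-U27, 8.28 in CMT-U309 and 9.32 in P114, an at least 5.59-fold lower signal (adjusted p = 0.0383, limma). CSF2, the granulocyte and macrophage growth factor GM-CSF, was high in both adenocarcinoma lines (13.04 and 11.93) but also in P114 (11.76), against 5.64 in CMT-U27 and 7.69 in CMT-U309. Its difference of 4.12 did not pass (adjusted p = 0.12, limma), and a second probe differed by -1.02. PTGS2, the inducible cyclo-oxygenase, was lowest in CMT-W1 (5.58) and highest in CMT-U309 (12.42). CXCL8 and CCL2, which attract neutrophils and monocytes, differed by -2.41 and -1.56 without passing.

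Interferon-stimulated genes had a median of -2.35, or -1.44 with the 3 members above background on no adenocarcinoma array at their bound, and none of 7 tested members passed. OAS2, which makes the activator of the antiviral RNase L, stood at 7.84 in CMT-W1 and at 11.61 in both CMT-W2 and CMT-U27, against 15.12 in CMT-U309 and 15.27 in P114 (difference -4.27 ± 1.40, adjusted p = 0.0906, limma). A second OAS2 probe differed by -4.56. The related OAS1 stood at 6.07 and 8.96 in CMT-W1 and CMT-W2 and at 10.43 to 10.75 in the others, and OAS3 at 6.43 and 5.72 against 7.83 to 8.89 (adjusted p = 0.0645 and 0.0578, limma). EIF2AK2, the antiviral kinase PKR, came closest to the threshold, at no more than 5.84 in the adenocarcinoma lines against 7.15 to 8.69 (adjusted p = 0.051, limma). Of the 7, 4 did not overlap between the classes (OAS1, OAS3, EIF2AK2 and MX1), a share near the 51.9% of all tested genes. Without CMT-U27, which leaves the closest pair as the other class, OAS2 and EIF2AK2 passed (adjusted p = 0.0439 and 0.0481, limma). With CMT-U309 and P114 counted as 1 line they did not (0.197 and 0.15), nor in Cy3 alone (0.131 and 0.115).

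Of 11 MHC and antigen presentation genes tested (median -1.22), the one that passed was higher. DLA-79, a non-classical class I gene of the dog, stood at 11.50 and 10.09 in CMT-W1 and CMT-W2 and at 6.74 to 7.91 in the other lines (difference 3.42 ± 0.69, adjusted p = 0.0309, limma). The classical class I gene DLA88 went the other way without passing, at 10.38 and 12.90 against 14.89, 14.12 and 14.02 (difference -2.70, adjusted p = 0.0797). DLA-64 behaved like DLA88, with a difference of -2.43, and its 2 other probes differed by -2.45 and -1.32. Class I genes are closely related in sequence, and how far their probes share signal was not tested.

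The macrophage and other leukocyte markers had a median of -2.02, or -0.58 with the 2 members above background on no adenocarcinoma array at their bound, with 12 of 20 members tested and none called. TYROBP, an adaptor of myeloid receptors, was high in CMT-U27 (14.05) and CMT-U309 (13.27) and lower in CMT-W1 (9.04), CMT-W2 (10.80) and P114 (10.39). S100A8, CD86 and FCGR1A had differences of -2.91, -2.08 and -2.73, with adjusted p of 0.0593, 0.148 and 0.0947 (limma). The medians of these markers and of the interferon, MHC and cytokine lists were all below that of all genes, and the part of the markers in those lists was not tested. Across the other lines, single members took different orders. OAS2 was highest in P114 (15.27), where TYROBP was lowest and CD163 not above background. MX1, CCL4 and HLA-DRB1 were, like TYROBP, highest in CMT-U27 (10.09, 14.51 and 15.70) and lowest in P114 (7.54, 11.26 and 11.16).

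Ribosomal protein genes were the list most shifted upward, with a median of 2.35, but only 4 of its 76 symbols had a named probe. All 4 were tested, and their levels did not overlap between the classes, against 51.9% of all tested genes. Of the 4, 1 passed. RPS18, RPL27 and RPL23 differed by 2.45, 2.24 and 1.45 and did not pass (adjusted p = 0.052, 0.0829 and 0.135, limma). CMT-W1, in which RPS18 stood at 19.60, was also the line with the fewest tested genes above background on both arrays, and the part of signal strength in these genes was not tested.

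The 11 cell cycle genes tested (median -0.15) included none that passed. CDC25A, the phosphatase that drives entry into S phase, stood at 8.72 and 7.47 against 4.78 to 5.96 and missed the threshold narrowly (adjusted p = 0.0522, limma). BIRC5 (survivin), a marker of dividing cells, differed by -0.82.

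Hypoxia and glycolysis genes had 7 members tested and 2 called, both lower (median -0.86). HMOX1, the heme oxygenase induced by oxidative stress, stood at 7.10 and 6.22 in CMT-W1 and CMT-W2 against 8.69 in CMT-U27, 10.68 in CMT-U309 and 11.32 in P114 (difference -3.57 ± 0.86, adjusted p = 0.0468, limma). Together with VEGFA it was low in both adenocarcinoma lines, whereas the levels of ADM, SLC2A1 and CA9 overlapped between the classes. ADM (adrenomedullin) was lowest in CMT-W1 (11.09) but high in CMT-W2 (13.35), SLC2A1, the glucose transporter GLUT1, differed by -0.04, and CA9 by -0.86. GAPDH differed by 1.44 with its brightest probe, and its 7 probes ranged from -2.44 to 1.44.

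Transporters and drug-metabolising enzymes had 18 members tested, with 1 called in each direction (median -0.12). CYP1B1, which oxidises oestrogens, was higher at 14.82 and 14.42 against 10.77 to 11.82 (difference 3.43 ± 0.61, adjusted p = 0.0233, limma), while its second probe differed by 0.44. ABCA4, a lipid transporter of photoreceptors, was lower at 9.56 and 10.40 against 12.87 to 13.46 (difference -3.15 ± 0.60, adjusted p = 0.0267, limma). ABCB1, the drug efflux pump P-glycoprotein, depended on the line, with 4.58 in CMT-W1 and 7.80 in CMT-U27 against 10.99 to 11.94 in CMT-W2, CMT-U309 and P114. MT2A, a metallothionein, was also low in CMT-W1 alone (8.75, against 12.87 to 15.18 in the others).

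Heat shock and stress genes had 14 members tested and HMOX1 alone called (median -0.33). HSPB1, the small heat shock protein HSP27, stood at 12.18 and 13.28 against 14.33, 16.01 and 16.28 and did not pass (adjusted p = 0.063, limma). CASP8, the initiator caspase of death receptors, differed by -2.86 and BCL2L1, an inhibitor of apoptosis, by 2.07, both without passing.

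Markers of endothelium, muscle and neural tissue had 11 members tested, 3 called higher and RPE65 lower (median 0.23). MITF, the transcription factor of pigment cells and osteoclasts, stood at 12.12 and 10.68 against 7.04 to 8.90 (difference 3.57 ± 0.78, adjusted p = 0.0367, limma), and its second probe differed by 3.42. MYL2 and MYH1, contractile proteins of striated muscle, also passed, by 3.97 and 2.91. Their other probes did not bear this out, with differences of 0.33 to 0.69 for MYL2 and at most 0.90 for MYH1, above background on at most 3 of 10 arrays. VWF and SELE, endothelial genes, were above background in all 5 lines and did not pass.

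**Figure D4:**
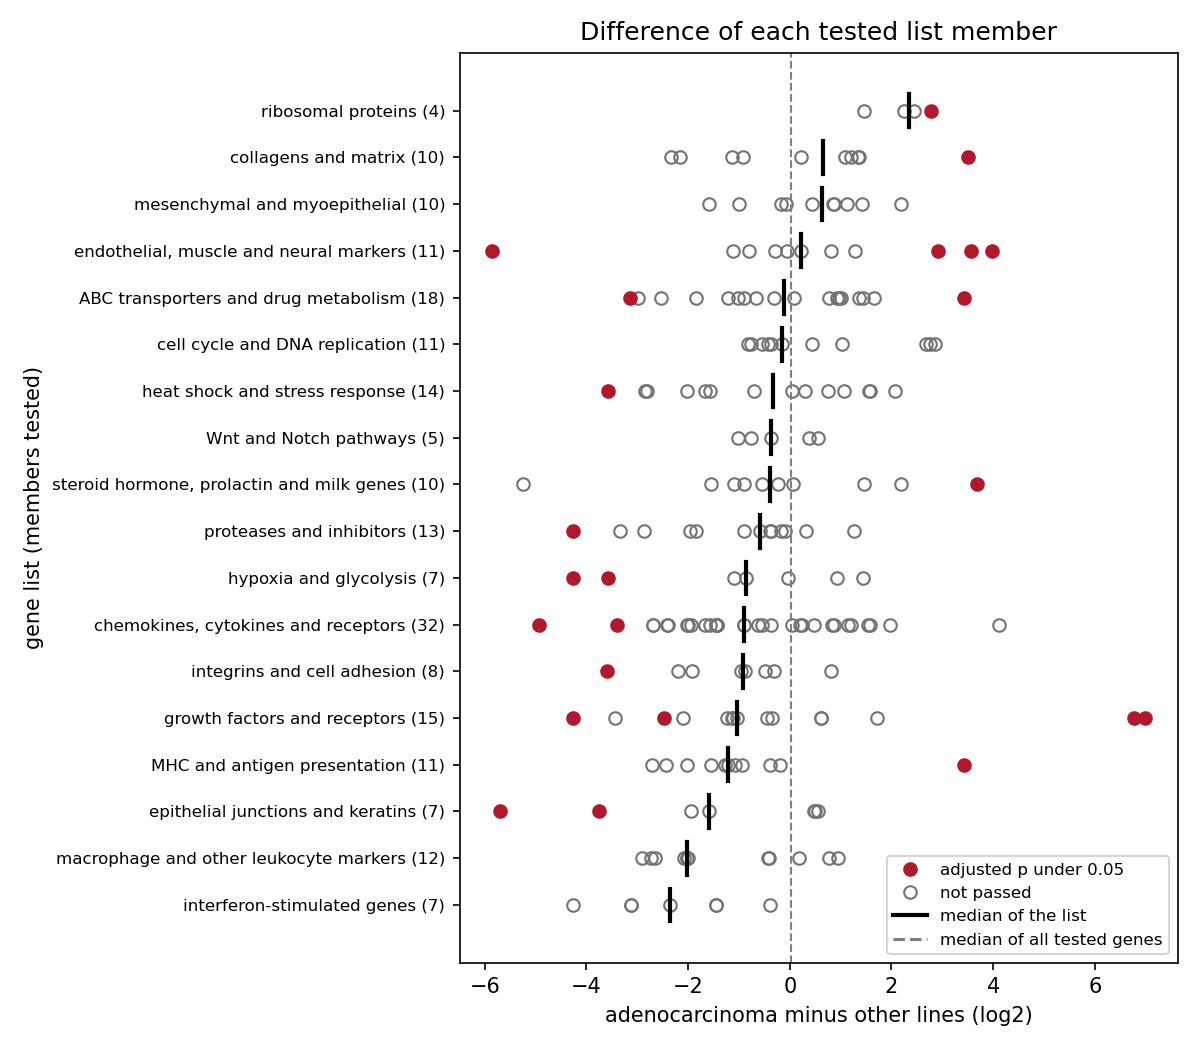
Each circle is the log2 difference between adenocarcinoma and other lines for 1 tested member of a gene list, filled where the adjusted p was under 0.05, with the list's median as a black bar and the median of all tested genes (0.03) as a dashed line. Fitted medians run from -2.35 for interferon-stimulated genes (-1.44 with members not above background at their bound) to 2.35 for ribosomal proteins.

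HPRT1, an enzyme of purine salvage, was looked up after its values were seen, because the study used it with RPS19 as a reference gene for PCR. That PCR compared co-culture with mono-culture of the same line, not the classes. HPRT1 stood at 14.07 in CMT-W1 and 13.11 in CMT-W2 against 10.15 in CMT-U27, 10.03 in CMT-U309 and 10.34 in P114. The difference was 3.42 ± 0.59 (adjusted p = 0.0222, limma), and its adjusted p was 0.0801 with CMT-U309 and P114 counted as 1 line. In the co-culture channel it was 1.97.

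The same class differences can be read in the RNA of the co-cultured cells, which shares lines, arrays and normalisation with the mono-culture values and is no independent check. The co-cultured cells were trypsinised and sorted, whereas the mono-cultures were scraped. Of the 1840 genes called in mono-culture, 1837 had the same sign in co-culture, with a median ratio of co-culture to mono-culture difference of 0.79. The 1840 were selected by their mono-culture difference, at least 4-fold in all, so neither value describes all tested genes. A share with the same sign over all tested genes is not given here. As examples side by side, the difference in mono-culture and in co-culture was 5.30 and 3.64 for DLC1, 3.68 and 4.26 for PPARG, and 3.43 and 3.41 for CYP1B1. For VEGFA it was -4.27 and -1.98, and for RPE65 -5.85 and -5.45. CSF2 and ADM differed by 4.12 and -1.09 in mono-culture and by 6.72 and 1.51 in co-culture. No test of these changes was made here.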

How the data were processed

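The authors deposited the scanner output of 20 two-colour arrays from Agilent Feature Extraction (version 10.7.3.1). Its intensity columns, per the file headers, hold processed signals after background correction, spatial detrending and linear and lowess dye normalization within each array. Other deposited columns are 0 or 1 marks for spots above background, saturated or outlying. The log10 ratio columns and the table of values per array, which compare co-culture with mono-culture, were not used. No column was without a sample (0).

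Signals of the 10 cancer cell arrays were put on the log2 scale and normalised between arrays (Aquantile, limma 3.58.1, R 4.3.3). Outlier spots were dropped, then the spots of a probe and both dye orientations of a line were averaged. Each gene was its brightest probe. It was named by a symbol where its RefSeq accession matched the gene table of the assembly UU_Cfam_GSD_1.0 (1648 of 43603 probes, 1045 symbols) and otherwise kept its accession. The array design uses another build, so no coordinates are given, and no sequences were used here. limma (lmFit, eBayes) tested the class difference over 5 lines with 3 residual and 4.91 prior degrees of freedom, and Benjamini-Hochberg adjusted over all 23450 genes. Where every array used of a class was not above background, the fold is a lower bound, from the mean of the brighter class over a floor. The floor is, per array, the higher of the lowest signal well above background and the probe's own signal.

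Named genes are the 10 with a symbol that passed, without overlap, with the largest difference in each direction, every list member that passed, the 4 tested members of a list with the largest difference, and the cell type markers. Some genes that meet this rule are not reported here. Other members are examples chosen after their values were seen. The lines, lists and tests were chosen with earlier results of these data known. Replicate number 1 or 2 of a line marks the dye orientation. The labels call these arrays biological replicates, but the methods describe a dye swap. Alternatives covered background correction (normexp, offset 50, on median signals, since mean signals are not in the files used), scaling, filters, outlier marks, probe choice, dye, slide, variance model, the methods' t-test and each line left out. On simulated data with 30% of the 23450 genes changed, the test called 50.5% of genes changed 4-fold and 87.3% of those changed 16-fold, with 3.61% of calls false. With only 200 genes changed it called 0% and 1.49% of these. The number of lines limits the precision. Figures were drawn with matplotlib 3.10.9 (Python 3.11.15).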

Additional observations from a re-analysis of the deposited data

How the results depend on the processing

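The count of 1840 genes stayed within 1.5 times of itself under quantile normalization (1962), scaling to the 75th percentile (2106, 64.6% of them higher against 57.3%, with the median of all genes at 0.17 in place of 0.03), Aquantile over 20 arrays (1691), no filter on dim probes (1324, median of all genes 0.19), genes above background in all 5 lines (2049, median 0.40), outlier spots kept (1308), every probe on its own (1796), the mean of probes (1662) and the slide as a random block (1906). It moved to 410 with the mono-culture in Cy3 alone, 0 with the slide as a fixed block and 0 under the methods' t-test (2021 and 5124 at an unadjusted p under 0.05, limma for the first). Chosen after seeing the data, counting CMT-U309 and P114 as 1 line gave 269, and taking CMT-U309 from its Cy5 array alone 2299. Leaving out each line gave 0 (without CMT-W1) to 7552 (without CMT-W2) genes, and 0 to 7310 at least 4-fold. Normexp gave 1978 genes, 1202 of them among the 1840, and 1117 at least 4-fold in place of 1840. A like count did not mean the same genes. With genes above background in all 5 lines, where 12752 were tested, 803 of the 2049 were among the 1840. Under quantile normalization 1813 of the 1962 were. The replicate number is the dye orientation, and a fit of 10 arrays with it as a replicate block and the line as a random block gave 3536 genes, 3104 of them at least 4-fold, with a correlation within lines of 0.82. This block pairs no lines, and the count treats arrays of a line as partly independent.

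With members not above background at their bound, the list median moved from -0.90 to -0.76 for cytokines, from -0.39 to -0.12 for steroid hormone genes and from -0.12 to 0.04 for transporters. Without the filter, the correlation of CMT-W1 with CMT-W2 was 0.89, the median between classes 0.84 and among the other lines 0.93. CMT-W1 with CMT-W2 gave 0.80 under quantile normalization and 0.82 under 75th percentile scaling. Of the 34 genes that met the naming rule, or were added to it, and passed, none changed direction under the alternatives in which it was tested. Some alternatives held fewer of the 34, such as 10 above background in all 5 lines and 31 in Cy3 alone. Leaving out a line cannot turn a gene whose levels do not overlap. All 34 lost the call with the slide as a fixed block and under the methods' t-test. No tested gene passed in either, so this does not set the 34 apart. CMT-W1 had the weakest signal, with 64.2% of tested genes above background on both arrays against 98.8% in CMT-U309, and of the 1840 genes 164 were above background on no adenocarcinoma array and 40 on no array of the other lines.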
